A study of Mus musculus with 36 samples.

Results

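The genes described here encode the subunits of the constitutive proteasome. They were taken as every probe set of the array whose platform annotation gives a single gene symbol that starts with Psma, Psmb, Psmc or Psmd and ends in a number, leaving out the immunoproteasome genes Psmb8, Psmb9 and Psmb10. This rule found 74 of 45037 probe sets, which measure 36 genes, and it uses no measured value. Expression was measured on 36 Affymetrix mouse arrays, in liver, brown adipose tissue (BAT) and white adipose tissue (WAT) of 12 male mice of the outbred ddY strain, which arrived at 5 weeks of age and were acclimated for 1 week. The tested animals were 5 mice given CAAM, an amino acid mixture in the proportions of casein, at 1.8% and 37.5 µL per g body weight by gavage, once a day for 5 administrations. The 7 control mice were given water (labelled DW) in the same volume and on the same schedule. Food was withdrawn before the last dose, and tissues were taken 4 h after it. Another 2 CAAM mice had been left out by the study for abnormal liver morphology. Equal mouse numbers in the 2 groups are different animals, while the same number in the 3 tissues of a group is the same animal.

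The proteasome is the protease that degrades most short-lived and damaged proteins after they are tagged with ubiquitin, and so returns amino acids to the cell. Its core is a barrel of stacked rings. The outer rings are built from alpha subunits (Psma genes), which gate the entrance, and the inner rings from beta subunits (Psmb genes), of which Psmb5, Psmb6 and Psmb7 carry the chymotrypsin-like, caspase-like and trypsin-like active sites. A regulatory particle caps the barrel. Its ring of ATPases (Psmc genes) unfolds substrates, and its non-ATPase subunits (Psmd genes) recognise and remove ubiquitin chains. Psmd5, Psmd9 and Psmd10 are chaperones that help to assemble the ATPase ring and are not part of the finished particle. Psma8 is the alpha subunit of the testis form and Psmb11 the beta subunit of the thymus form. By these roles the 36 genes comprise 8 alpha ring, 8 beta ring, 6 ATPase, 11 other non-ATPase and 3 assembly chaperone genes. Of the 36 genes, 17 have 1 probe set and 19 have several, up to 8 for Psmd11, and a gene with several stands here by the brightest of them, averaged over all arrays.

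The deposited values are scores of the distribution free weighted (DFW) method, which follow a log2 scale for the level of a probe set but shrink small deviations within a tissue by a factor that is not known here. The SD over the 12 arrays of a tissue had a median over all probe sets of 1.08e-05 score units in liver, 7.38e-06 in BAT and 1.42e-05 in WAT. Differences between CAAM and water are therefore given as standardised differences, in units of the pooled SD within groups, and not as fold changes. With 5 and 7 mice a standardised difference has a standard error of 0.586 and a 95% half-width of 1.30. The labelled tissues carried their defining markers. The hepatocyte gene Alb had a median score of 15.00 in liver, 6.54 in BAT and 6.98 in WAT. The brown fat gene Ucp1 had 6.27, 14.17 and 6.44 in the same tissues, and the white fat hormone gene Lep 6.43, 7.34 and 11.33. In BAT, 4 arrays stood apart in skeletal muscle genes. The mean score of 6 muscle markers was 11.06 in CAAM mouse 2, against 11.59, 10.59 and 9.05 in water mice 1, 3 and 7, and it lay between 6.61 and 7.42 on the other 8 BAT arrays. In WAT, genes of the epididymis, a male tract tissue that adjoins the fat pad, ranged widely, with Adam7 between 6.44 and 16.24 and Lcn8 between 6.36 and 19.85, and 4 arrays (CAAM mice 6 and 7, water mice 1 and 2) stood out in them. For the genes named in the CAAM comparison, the counts, the medians and the shared variation, values without these arrays are given as well. The relations between scores and the comparison between tissues were not repeated without them as a set.

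Nearly every subunit gene lay among the brightest probe sets in all 3 tissues. In water mice 34 of the 36 genes in liver, 33 in BAT and 33 in WAT were above the 80th percentile of the array, and the median subunit lay at the 96.4th, 97.1st and 96.4th percentile. The median score of the subunits was 10.73 in liver, 10.78 in BAT and 10.74 in WAT, against 6.81, 6.78 and 6.92 for all probe sets. The genes below it were Psma8 and Psmb11 in each tissue and the chaperone gene Psmd9 in BAT and WAT, at the 78.6th percentile of both. Psma8 had scores of 6.66 in liver, 6.16 in BAT and 6.35 in WAT, and Psmb11 had 6.66, 6.09 and 6.13, all below the median of the array. The brightness of a probe set also depends on its probes, so the order of the subunits on an array is not an order of transcript amounts. On that scale Psma3 came first in every tissue, with 12.25 in liver, 12.19 in BAT and 11.75 in WAT. It was followed by Psma4 and Psmb4 in liver, by Psma6 and Psmb3 in BAT, and by Psma5 and Psmb1 in WAT. After Psma8 and Psmb11 the lowest genes were assembly chaperones, Psmd10 in liver (8.48) and Psmd9 in BAT (7.97) and WAT (8.28). Of the 74 probe sets, 13 in liver, 18 in BAT and 17 in WAT lay below the array median, most of them second probe sets of genes that were bright elsewhere.

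**Figure D1:**
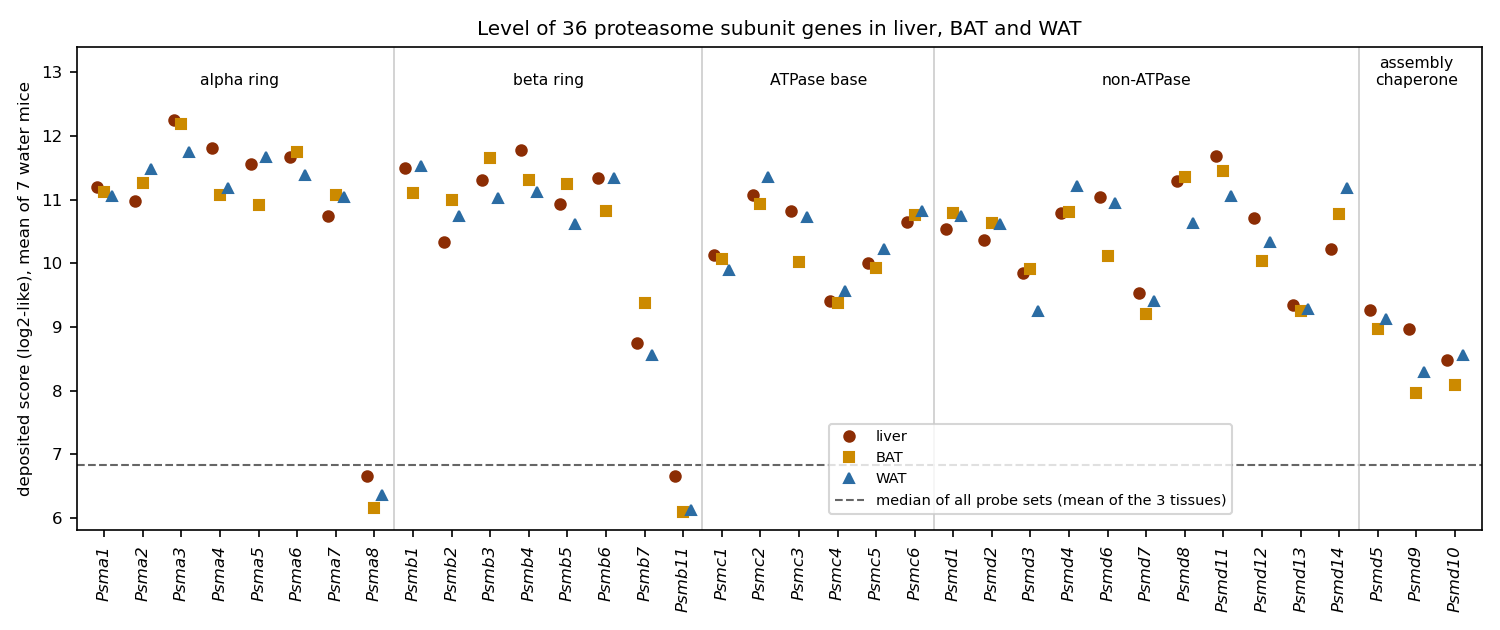
Mean deposited score of each of the 36 subunit genes over 7 water mice (y axis, log2-like score units), with genes on the x axis grouped by role, for liver (circles), BAT (squares) and WAT (triangles). The dashed line is the median of all probe sets. Psma8 and Psmb11 lie below it in each tissue, and Psma3 is at the top with 12.25, 12.19 and 11.75. The spread of the deposited scores between mice, which the quantification shrank by an unknown factor, is smaller than the symbols.

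Tissues were compared over the 7 water mice. Tissue differences had a median size over all probe sets of 0.272 score units for liver minus WAT, 0.230 for liver minus BAT and 0.218 for BAT minus WAT, while the median SD between water mice over all probe sets was 1.03e-05 in liver, 6.89e-06 in BAT and 1.26e-05 in WAT, and 99.3% of all probe sets did not overlap between the liver and WAT arrays, 99.6% between liver and BAT and 99% between BAT and WAT. Whether the tissues were quantified in one run is not given in the sources used here, so tissue levels are described and not tested. Deviations within a tissue were shrunk by an unknown factor, so a lack of overlap does not set a tissue difference against the spread of expression between mice. In whole tissue, fewer cells of a type cannot be told apart from less RNA per cell. In array percentile, 23 subunit genes were higher on every liver array than on every WAT array and 13 lower, where 51.3% of all probe sets were higher and 48.1% lower. Between liver and BAT the counts were 14 and 21, against 48% and 51.6% of all probe sets, and between BAT and WAT 21 and 14, against 51.1% and 47.8%. The counts take each gene by its brightest probe set, and other bright probe sets did not always keep the sign. Psma7 had mean percentiles of 96.47 in liver and 97.23 in WAT, but another bright probe set had 97.21 and 96.69. Psma6 had 98.20 in liver, 98.58 in BAT and 98.00 in WAT, but another bright probe set had 98.06, 98.29 and 98.44. For Psma5 and Psmb3 another bright probe set kept the sign of liver minus WAT. The median percentile difference of the 36 genes was 0.244 for liver minus WAT, -0.212 for liver minus BAT and 0.408 for BAT minus WAT, beside 0.269, -0.267 and 0.207 over all probe sets. The last 2 medians changed sign on the deposited score, to 0.08 and -0.09 units.

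Larger differences of single subunits were found in shares near those over all probe sets. A difference over 0.5 score units was found for 10 of 36 genes between liver and WAT, 11 between liver and BAT and 9 between BAT and WAT, where 29.7%, 24.1% and 22.1% of all probe sets passed that size. Psmb7, the trypsin-like subunit, reached 8.75 score units in liver, 9.37 in BAT and 8.56 in WAT. Among the common beta ring genes it had the largest percentile difference, being 9.60 ± 0.03 points higher in BAT than in WAT with a liver minus BAT difference of -5.08 ± 0.01 points (SD, n = 7 water mice). These SDs are of values whose deviations the quantification shrank, and they do not measure the spread of expression between mice. The other active-site subunits were ordered otherwise. Psmb5 had 10.93 in liver, 11.25 in BAT and 10.61 in WAT, and Psmb6 had 11.35, 10.83 and 11.35. Psmb2, a structural beta subunit, had 10.33 in liver, against 10.99 in BAT and 10.74 in WAT.

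In the regulatory particle, Psmd14, the metalloprotease that removes ubiquitin chains, had the largest negative difference of the 36 genes between liver and WAT, with 10.22 in liver, 10.78 in BAT and 11.18 in WAT. Psmd6, a lid subunit, had 11.04 in liver and 10.95 in WAT, against 10.11 in BAT, but its second bright probe set had 10.00 in liver, 10.19 in BAT and 10.29 in WAT, so that the sign of liver minus BAT differed between the 2 probe sets. The ATPase Psmc3 had 10.02 in BAT and 10.72 in WAT. Psmd3, another lid subunit, had 9.84 in liver and 9.91 in BAT, against 9.26 in WAT. Psmd8 had 11.30 in liver and 11.36 in BAT, against 10.63 in WAT. The chaperone gene Psmd9 had 8.96 in liver, 7.97 in BAT and 8.28 in WAT, a liver excess of 0.99 score units over BAT and 0.68 over WAT. Psmd10 had 8.48 in liver, 8.09 in BAT and 8.56 in WAT. Psma5 was lower in BAT (10.91) than in liver (11.56) and WAT (11.67), and Psma2 had 10.97 in liver, 11.26 in BAT and 11.48 in WAT. Psmd13 was 1.90 percentile points higher in BAT than in WAT but 0.04 units lower on the deposited score. The largest percentile differences of all, 19.2 to 31.3 points in favour of liver, belonged to Psma8 and Psmb11 near background.

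For promoters the RefSeq windows of the 250 bases before the transcription start (GRCm38.p6) were used, which were available for 29 of the 36 genes (31 windows). They are shown as a description of sequence, and their part in the variation of the subunits between mice was not tested. The antioxidant response core TGACNNNGC, the element bound by Nfe2l1 and Nfe2l2, was found on either strand in 5 of 31 windows, against 10.2% of 32851 windows of all genes. The ETS-type motif CCGGAAGT was found in 5 of 31 windows (4 genes, Psmc2 with both of its windows), against 2.88% of all. CCAAT stood in 12 of 31, against 33.8%, and the GC box GGGCGG in 17 of 31, against 32.7%. Each motif was searched on its own, so that overlapping matches of different motifs count for each. The matches of the response core are given with 10 flanking bases where the window holds them, read 5′ to 3′ on the strand of the gene, with the motif in capitals.
Psmb5, chr14:54618024-54618052, minus strand: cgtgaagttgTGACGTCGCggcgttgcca
Psmb6, chr11:70525338-70525356, plus strand: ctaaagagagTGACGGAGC
Psmc6, chr14:45329587-45329615, plus strand: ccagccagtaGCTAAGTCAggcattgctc
Psmd12, chr11:107479278-107479299, plus strand: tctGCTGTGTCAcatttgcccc
Psmd9, chr5:123228149-123228177, plus strand: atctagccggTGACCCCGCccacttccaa
In Psmc6 and Psmd12 the motif reads on the opposite strand. The matches of Psmb5, Psmb6 and Psmd9 began 47, 9 and 31 bases before the start, and those of Psmc6 and Psmd12 227 and 247 bases before it. A match describes the letters of the window and is no evidence of binding.

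The ETS-type matches lay 18 to 85 bases before the start.
Psmc1, chr12:100110163-100110190, plus strand: tggtggatgcACTTCCGGcggtggcgat
Psmc2, first window, chr5:21785180-21785207, plus strand: accagtgagcACTTCCGGgatggggctc
Psmc2, second window, chr5:21786712-21786739, plus strand: gcgcggagctACTTCCGGtggggaagag
Psmd12, chr11:107479500-107479527, plus strand: tgagcgggcgACTTCCGGtgcgagtgac
Psmd6, chr14:14120973-14121000, minus strand: agagacgcgaCCGGAAGTcagactggcg
The whole window of Psmb5, a subunit of every cell, and that of Psmb11, the thymus subunit at background here, are printed for contrast, with every match of the 4 motifs in capitals. The Psmb5 window holds the response core and none of the other motifs, and the Psmb11 window a single CCAAT.
Psmb5, chr14:54617996-54618245, minus strand: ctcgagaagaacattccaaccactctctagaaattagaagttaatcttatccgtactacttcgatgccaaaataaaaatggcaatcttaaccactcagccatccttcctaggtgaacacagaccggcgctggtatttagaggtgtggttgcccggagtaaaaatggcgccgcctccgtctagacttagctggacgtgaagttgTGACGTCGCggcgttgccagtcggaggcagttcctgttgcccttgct
Psmb11, chr14:54625060-54625309, plus strand: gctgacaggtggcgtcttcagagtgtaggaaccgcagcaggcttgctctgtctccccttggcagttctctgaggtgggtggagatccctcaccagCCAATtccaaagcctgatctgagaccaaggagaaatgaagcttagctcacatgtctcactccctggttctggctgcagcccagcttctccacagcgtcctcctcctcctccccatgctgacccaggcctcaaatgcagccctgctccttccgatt

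CAAM was then compared with water within each tissue, with 5 mice against 7. The p-values measure the spread between these mice. By rank products, with calls made where fewer than 5% of called probe sets were estimated to be false, 0 of 74 probe sets were called in liver, 1 in BAT and 0 in WAT, where 2.68%, 3.17% and 2.61% of all probe sets were called. Of all probe sets 1.63% were called higher and 1.18% lower in liver, 1.2% and 2.05% in BAT, and 0.824% and 1.94% in WAT. In numbers, 1209, 1426 and 1177 of all probe sets were called in liver, BAT and WAT. On simulated data rank products falsely called 1271, 1329 and 1381 of 44837 unchanged probe sets. The limit of 5% was thus not kept there, and a call by rank products alone is no evidence of a change. Rank products on differences divided by the SD of the probe set called 0, 1 and 0 members, where 0.466%, 0.48% and 0.193% of all probe sets were called, and the member called in BAT was another one, a dim Psma5 probe set that was higher. By limma, 0 of 74 were called in each tissue, and the lowest adjusted p of a member was 0.680 in liver, 0.612 in BAT and 0.9999 in WAT. Limma called 0% of all probe sets in any of the 3 tissues, too. At an unadjusted limma p under 0.05 there were 3, 7 and 3 member probe sets, and by the exact permutation test over all divisions of the mice 3, 7 and 4, where 6.85%, 6.26% and 4.33% of all probe sets passed in liver, BAT and WAT. In 0 of 74 probe sets did the CAAM arrays lie wholly above or below the water arrays, where 0.442% of all probe sets did in liver, 0.329% in BAT and 0.222% in WAT. The median standardised difference of the 36 genes was 0.28 in liver, -0.004 in BAT and 0.07 in WAT.

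**Figure D2:**
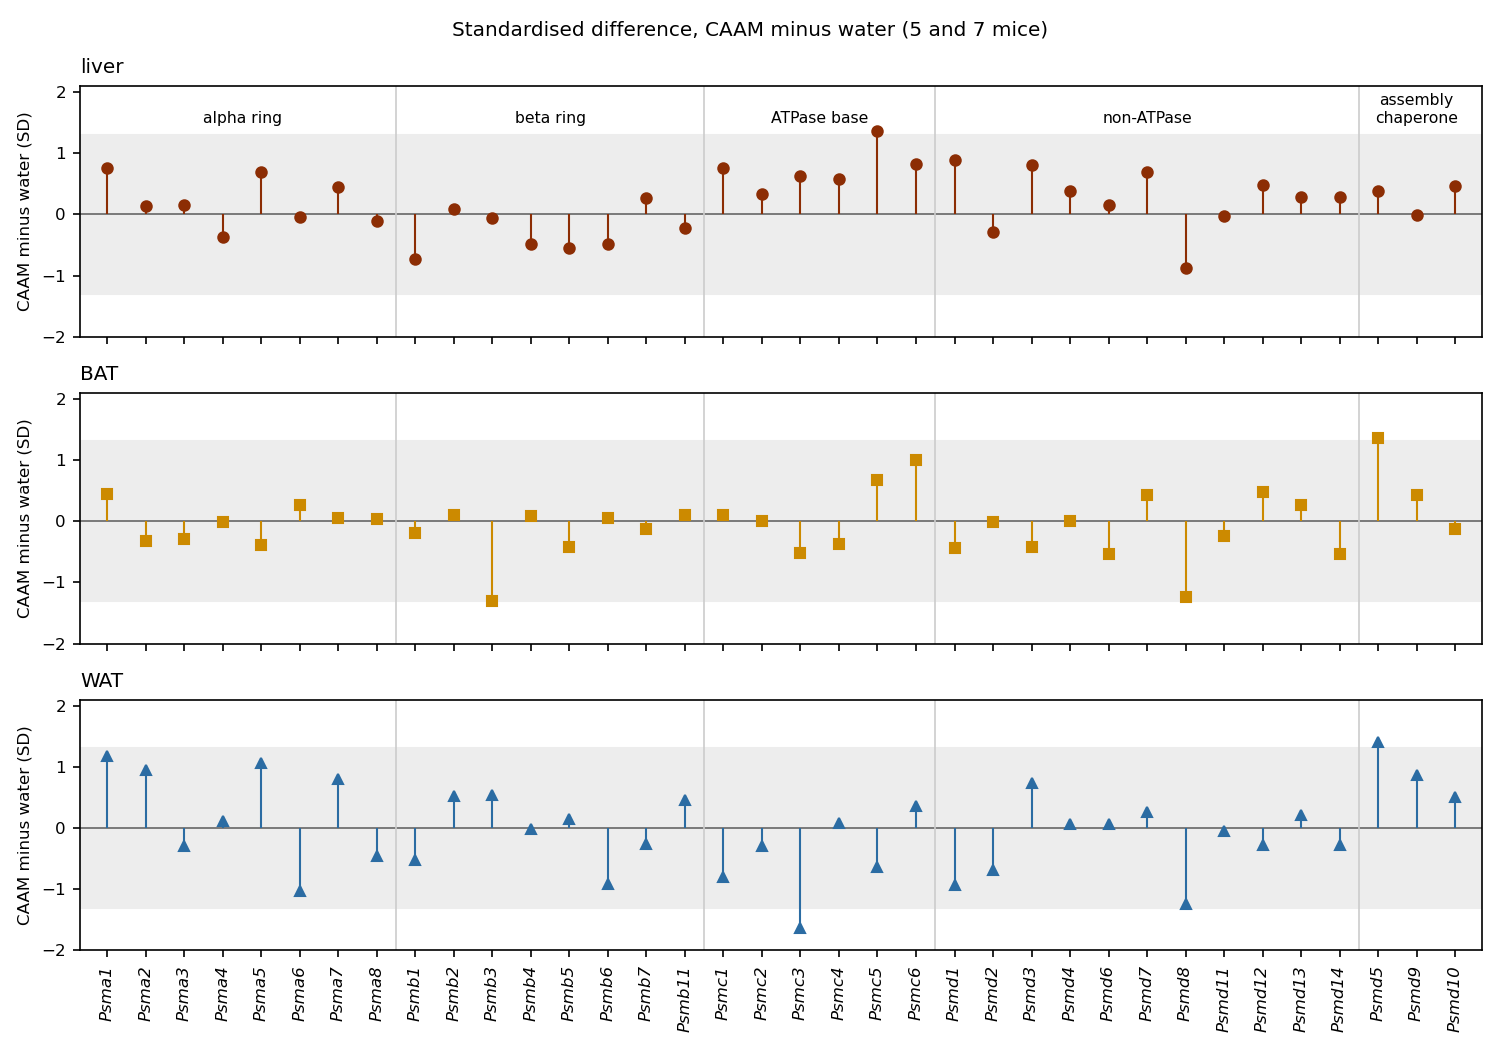
Standardised difference between CAAM and water (y axis, CAAM minus water in units of the pooled SD within groups, 5 and 7 mice) of each subunit gene (x axis, grouped by role) in liver, BAT and WAT. The grey band is the 95% half-width of 1.30 around 0. It is passed by Psmc5 in liver, Psmd5 in BAT, and Psmd5 and Psmc3 in WAT, and with arrays centred on their medians, where the median of all probe sets is -1.36, 0.90 and 0.16, each value in liver is negative and each in the adipose tissues positive.

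The median standardised difference of all probe sets was -0.09 in liver, -0.01 in BAT and 0.01 in WAT as deposited. It became -0.49, 0.60 and 0.05 after quantile normalization and -1.36, 0.90 and 0.16 with arrays centred on their medians. A change of sign of a subunit under a scaling is to be read against these shifts. Bright liver subunits also moved little in rank between arrays. Psma3 and Psmb1 kept 1 percentile each, 98.84 and 97.95, on every liver array. After quantile normalization Psma3, Psmb1 and Psmd11 had the same value of -1.20 in liver. Values of single liver subunits after quantile normalization thus rest on few rank steps and cannot show whether a subunit keeps its sign.

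In liver 23 of the 36 genes had a higher mean after CAAM, where 44.5% of all probe sets did, and the count was 13 after quantile normalization and 0 with arrays centred on their medians, where 21% and 4.35% of all probe sets did. The ATPases leaned furthest, with a higher mean in 6 of 6 genes and standardised differences of 0.33 to 1.37, but 2 of 6 were higher after quantile normalization and 0 of 6 after centring. Psmc5 was the largest. Its values were 0.61, 1.06, 3.47, 1.15 and 0.58 SD in CAAM mice 2, 4, 5, 6 and 7, counted from the water mean, against -1.42 at the lowest, 0.23 at the median and 1.21 at the highest in water mice. All 5 CAAM livers were above the water median and 1 was above the water range, CAAM mouse 5. The standardised difference was 1.37 (exact permutation p = 0.020, limma adjusted p = 0.728), and it became -1.15 with centring. Psmc6, another ATPase, lay at 0.45 to 1.26 SD in CAAM livers, against -1.77 to 1.95 in water livers, with a difference of 0.82. After quantile normalization, which left few rank steps in liver, the difference was -1.86.

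Among the non-ATPase subunits of the liver, 8 of 11 had a higher mean and 3 a lower one. Psmd1, a scaffold of the base, differed by 0.88 and Psmd3 by 0.81, both with 4 of 5 CAAM livers above the water median, and both were negative with centring. Psmd8, a lid subunit, was the lowest of the 36 genes at -0.87, with CAAM livers at -1.05 to -0.32 SD, against -1.17 to 2.17 in water livers. The beta ring leaned down in liver, with a lower mean in 6 of 8 genes. Psmb1 differed by -0.73, Psmb5 by -0.55, Psmb6 by -0.49 and Psmb7 by 0.27, of which only that of Psmb1 was larger than 1 standard error, and Psmb7 was negative after both scalings. The 3 probe sets of Psmb1 above the array median had opposite signs in liver, between -1.09 and 0.89. The alpha ring had 5 genes higher and 3 lower, between -0.38 (Psma4) and 0.76 (Psma1). The exact permutation p of each liver gene named here other than Psmc5 was 0.164 or higher. Rank products called 5 of 7 macrophage markers and 2 of 4 neutrophil markers higher after CAAM in the same livers, where 1.63% of all probe sets were called higher. Limma called 0 of 7 and 0 of 4, and the exact permutation p was under 0.05 in 4 of 7 and 0 of 4. The part of these cells in the subunit values was not tested.

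Markers of other cells were called by rank products in BAT as well. These calls were 6 of 6 muscle markers and 5 of 7 macrophage markers lower after CAAM, where 2.05% of all probe sets were called lower. A higher mean was found in 0 of 6 and 0 of 7. Limma called 0 of 6 and 0 of 7, and the exact permutation p was under 0.05 in 0 of 6 and 0 of 7. The correlation with the subunit mean over the 12 mice was 0.723 to 0.743 for the muscle markers and -0.496 to 0.369 for the macrophage markers. The part of macrophages in the subunit values was not tested. In BAT 17 of 36 genes had a higher mean after CAAM, where 49.2% of all probe sets did, and after quantile normalization or centring 36 of 36 did, where 97.2% and 98.5% of all probe sets did. The probe set called lower by rank products measured Psmd6. It lay at 1.65, -1.36, -0.88, -1.17 and -2.08 SD in CAAM mice 2, 4, 5, 6 and 7, against -0.98 to 0.65 SD in water mice. The muscle-rich CAAM mouse 2 was above the water range and 3 of the other CAAM mice were below it. Its standardised difference was -0.77, with an exact permutation p of 0.225 and a limma adjusted p of 0.893, and the difference was -2.28 without the 4 muscle-rich arrays. The second probe set of Psmd6, which represents the gene, differed by -0.54 with all mice and by -1.53 without those arrays. Rank products compare raw differences, and the SD of the called probe set was at the 93.2nd percentile of all probe sets in BAT. The call was lost without any 1 of 9 of the 12 mice and without the 4 muscle-rich arrays. Without CAAM mouse 2, 6 members were called lower, where 1105 of all 45037 probe sets were. They were probe sets of Psmc4, Psmd6, Psmd14 and Psmd1, with Psmc4 and Psmd6 counted at 2 probe sets each. Without the muscle-rich arrays 12 of 36 genes had a higher mean and the median difference was -0.45, and without CAAM mouse 2 the median was -0.55.

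The largest positive difference in BAT was that of the chaperone gene Psmd5. It lay at 2.26, 1.93, -0.19, 0.86 and 1.98 SD in CAAM mice 2, 4, 5, 6 and 7, against -1.49, 0.46 and 0.97 SD at the lowest, median and highest of the water mice. Thus 3 of 5 CAAM mice were above the water range. The standardised difference was 1.37 (exact permutation p = 0.049, limma adjusted p = 0.755), and 1.05 without the muscle-rich arrays. Psmc6 differed by 1.01, Psmc5 by 0.68 and the lid gene Psmd12 by 0.48, and in the last 2 CAAM mouse 2 alone stood above the water range, at 2.56 and 2.28 SD. On the other side, Psmb3, a structural beta subunit, lay at -2.66 to -0.32 SD in CAAM mice, against -1.79 to 1.63 in water mice. Its difference was -1.30 (exact permutation p = 0.056), and none of the CAAM mice exceeded the median of the water mice. Psmd8 differed by -1.23 (exact permutation p = 0.061) and Psmd14 by -0.54. Without the muscle-rich arrays Psmb3 differed by -1.25, Psmd8 by -0.83 and Psmd14 by -1.34, and Psmc6, Psmc5 and Psmd12 by 0.91, 0.32 and 0.55. Of the active-site subunits, Psmb5 differed by -0.42, Psmb6 by 0.06 and Psmb7 by -0.12, against -0.88, 0.03 and -0.67 without the muscle-rich arrays.

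In WAT 19 of 36 genes had a higher mean after CAAM, where 51.1% of all probe sets did, and the count was 32 after quantile normalization and 36 after centring, where 67.6% and 96.6% of all probe sets did. The ATPase Psmc3 had the largest difference of any subunit gene in any tissue. It lay at -0.71, -2.50, -1.12, -1.97 and -1.87 SD in CAAM mice 2, 4, 5, 6 and 7, against -0.95, -0.53 and 1.89 SD at the lowest, median and highest of the water mice. All 5 CAAM mice were below the water median and 4 were below the water range. The standardised difference was -1.63 (exact permutation p = 0.015, limma adjusted p = 0.9999), and it was -1.12 without the 4 arrays rich in epididymis genes. Psmd8 again had a negative difference, -1.24 (exact permutation p = 0.052), with CAAM mice at -3.11 to -0.26 SD, against -1.97 to 0.92 in water mice. Psma6 differed by -1.03, Psmd1 by -0.93 and Psmb6 by -0.91. Without the epididymis-rich arrays Psmd8 differed by -0.64, Psma6 by -1.64, Psmd1 by -0.48 and Psmb6 by -0.13.

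On the positive side in WAT stood Psmd5 at 1.41 (exact permutation p = 0.032), or 1.07 without the epididymis-rich arrays. It lay at 2.52, 0.43, -0.42, 3.15 and 1.36 SD in CAAM mice 2, 4, 5, 6 and 7, against -0.75 to 0.67 SD in water mice, so that 3 of 5 CAAM mice were above the water range. All 3 assembly chaperone genes had a higher mean, between 0.50 and 1.41, and 2 of 3 after quantile normalization. The 0.50 of Psmd10 rested on CAAM mouse 6, an epididymis-rich array, at 3.01 SD. CAAM mice 2, 4, 5 and 7 lay at -0.14, -0.46, 0.07 and 0.02 SD, against -0.51 to 1.17 in water mice. The alpha ring genes Psma1, Psma5 and Psma2 differed by 1.17, 1.07 and 0.94, and 5, 5 and 4 of the CAAM mice exceeded the median of the water mice. Without the epididymis-rich arrays these 3 values were 1.39, 0.94 and 0.76. Psmb5 differed by 0.14 and Psmb7 by -0.26, against 0.88 and 0.33 without those arrays. Without the 4 arrays rich in epididymis genes 27 of 36 subunit genes had a higher mean and the median difference was 0.45, while without CAAM mouse 2 the median was -0.32.

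Genes with several probe sets above the array median gave a check within the array. The probe sets had one sign in 10 of 17 such genes in liver, 10 of 17 in BAT and 7 of 17 in WAT, and opposite signs in the rest. For Psmd11 they ran between -1.37 and 0.41 in liver and for Psma6 between -1.03 and 0.94 in WAT. The largest standardised difference of any member probe set was 2.64, in BAT, at a dim probe set of Psma5 whose score of 6.38 was at the 27.3rd percentile of the array. It lay at 1.80 to 4.01 SD in CAAM mice, against -1.28 to 1.94 in water mice, while the bright probe set that represents Psma5 differed by -0.39. Without the muscle-rich arrays the difference of the dim probe set was 2.32.

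That dim Psma5 probe set was the only member called for a CAAM difference that differs between tissues, by limma on differences within mice. The values were first divided by the SD of each probe set in the same mice. The test leaves out the error of that SD, and each member had the same SE of 0.804 for liver minus WAT. An unadjusted p under 0.05 was found for 4484, 4269 and 3896 of 45037 probe sets in the 3 comparisons named next. The SE and adjusted p of this test may therefore be too small. Over 74 member probe sets the test called 0 for liver against WAT, 1 for liver against BAT and 0 for BAT against WAT, where 0.329%, 0.273% and 0.0622% of all probe sets were called. For liver minus BAT the difference was -3.26 ± 0.78 SD units (SE, limma adjusted p = 0.026, exact permutation p = 0.003 unadjusted), and for BAT minus WAT 3.50 ± 0.77 (limma adjusted p = 0.059). The call for liver against BAT was lost without any 1 of 5 mice, namely CAAM mouse 2, 4 or 7 or water mouse 3 or 7, when it fell to 0 members. The same test gave adjusted p of 0.224 or higher for each member of liver against WAT, so that the Psmc5 and Psmc3 values above are not shown to differ between these tissues.

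On the deposited scale the subunits varied together from mouse to mouse. After the mean of each treatment was taken off, the mean correlation over the 630 pairs of subunit genes was 0.320 in liver, 0.516 in BAT and 0.201 in WAT (12 mice each). Over all pairs of all probe sets it was 0.009, 0.005 and 0.026, and over the pairs of the probe sets above the 90th percentile of the array 0.037, 0.029 and 0.023. Values on one array share its RNA, hybridisation and normalization, and probe set pairs are not independent, so these are descriptions. The correlation was above 0 in 520 of the 630 pairs in liver, 596 in BAT and 468 in WAT, and in 387 pairs in each of the 3 tissues, while no pair was below 0 in each. A correlation above 0.5 in each tissue was found for 58 pairs, among them Psmd2 with Psmd14, Psmc4 with Psmc5, Psma3 with Psmd6 and Psmb5 with Psmb6. As a measure of what the array can show, 17 pairs of bright probe sets of the same gene had mean correlations of 0.487 in liver, 0.678 in BAT and 0.647 in WAT. Other scalings could not show whether the excess over other probe sets holds. After quantile normalization the mean correlation of the subunits was 0.0786 in liver, below the 0.177 of all probe sets, and 0.929 in BAT and 0.864 in WAT, beside 0.849 and 0.830 for all probe sets. Arrays centred on their medians gave 0.905, 0.975 and 0.902 for the subunits and 0.810, 0.926 and 0.893 for all probe sets. Centring puts the shift of an array median into all probe sets of that array. The medians span 0.000345 score units in liver, 0.00143 in BAT and 0.00596 in WAT, more than the SD of most probe sets. All probe sets then vary together. In liver, quantile normalization left few rank steps to vary.

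**Figure D3:**
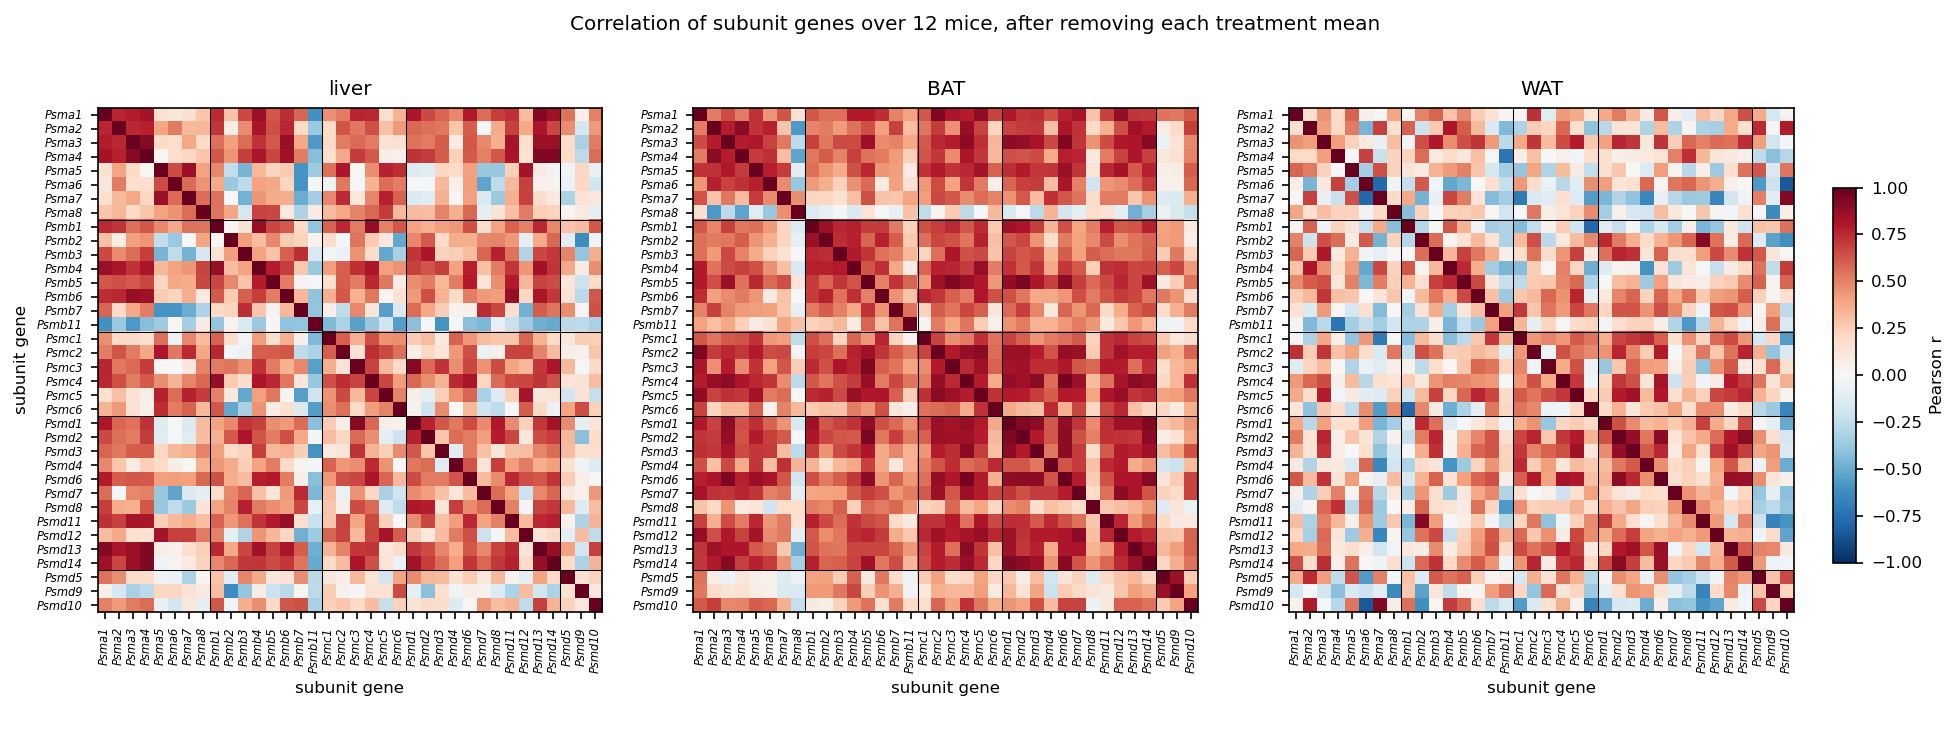
Pearson correlation (colour) of each pair of subunit genes over 12 mice after the treatment means were removed, in liver, BAT and WAT, with genes ordered by role on both axes and lines between the roles. The mean over pairs is 0.320 in liver, 0.516 in BAT and 0.201 in WAT, and Psmb11 in liver and Psma8 in BAT stand out as pale or blue stripes. After quantile normalization, which leaves few rank steps in liver, the mean in liver is 0.0786.

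In liver the genes with the highest mean correlation with the other subunits were Psmb4 (0.544), a beta subunit, Psma1 (0.527), an alpha subunit, and the ATPase Psmc4 (0.505). In BAT they were the ATPases Psmc2 (0.686) and Psmc5 (0.678) and Psmd1 (0.669). In WAT they were Psmd6 (0.415), Psma3 (0.415) and Psmd2 (0.408). The lowest gene was Psmb11 in liver (-0.318), Psma8 in BAT (-0.073) and the common alpha subunit Psma7 in WAT (-0.089). The chaperone gene Psmd9 had -0.025 in liver, 0.262 in BAT and 0.007 in WAT, and the common beta subunit Psmb1 -0.047 in WAT. The mean over the 3 chaperone genes was 0.125 in liver, 0.294 in BAT and 0.063 in WAT, lower than that of each other role in each tissue, of which the non-ATPase subunits had 0.377, 0.578 and 0.268.

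A subunit score was computed for each mouse as the mean of the 36 standardised values. In liver it was 0.35, 0.16, 1.03, -0.58 and -0.35 in CAAM mice 2, 4, 5, 6 and 7, against -0.78, -0.13 and 0.87 at the lowest, median and highest of the water mice. In BAT it was 1.53, -0.52, -0.51, -0.01 and -0.61 in the CAAM mice, against -1.04, -0.05 and 0.66. In WAT it was 1.03, -0.31, -0.12, -0.27 and -0.32 in the CAAM mice, against -0.71, 0.15 and 0.42. The groups overlapped in all 3 tissues. CAAM mouse 2 had the highest score in BAT, where 34 of 36 genes were above the mean of the tissue, and in WAT, where 27 of 36 were. Water mouse 5 had the lowest in BAT, with 1 of 36. The difference between CAAM and water was 0.21 ± 0.35 in liver, -0.04 ± 0.46 in BAT and 0.001 ± 0.298 in WAT (SE), with exact permutation p of 0.537, 0.933 and 0.997.

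**Figure D4:**
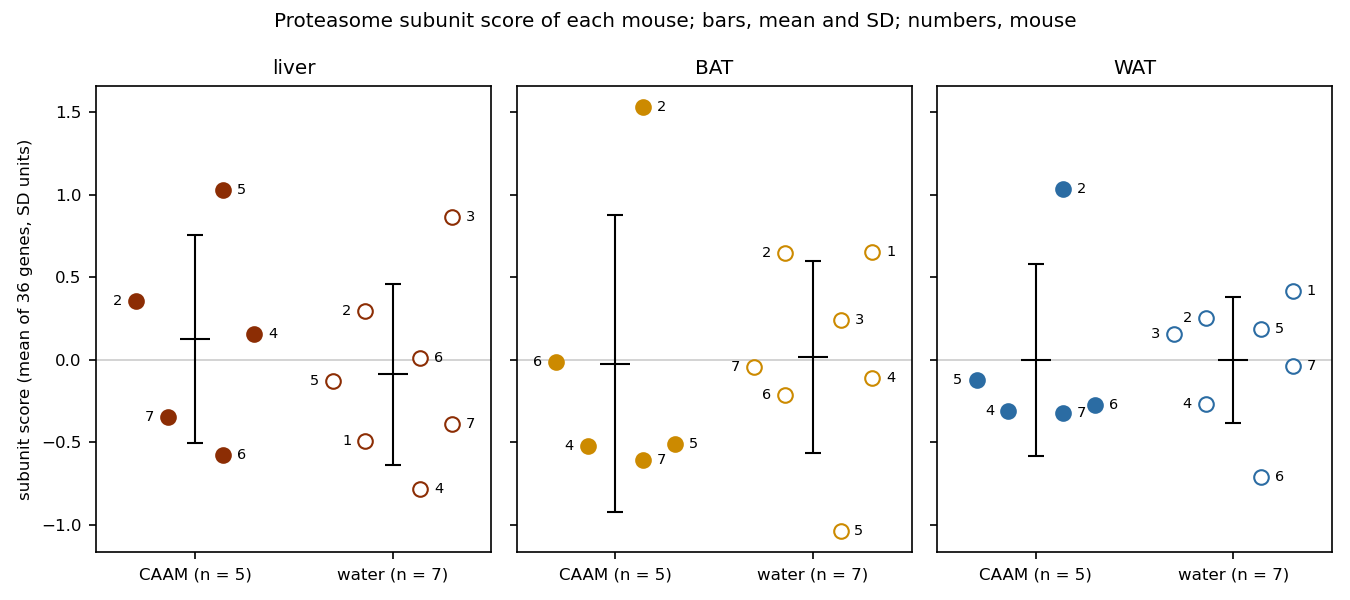
Subunit score of each mouse (y axis, mean over 36 genes of the deviation from the tissue mean in units of the SD within groups) for CAAM (filled) and water (open) in liver, BAT and WAT, with mouse numbers beside the points and mean ± SD as bars. CAAM mouse 2 is at 1.53 in BAT and 1.03 in WAT, above all other mice, and CAAM mouse 5 is highest in liver at 1.03.

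The score was then set against the score of the same mouse in another tissue and against measures of the array, in a family of 12 relations over 12 mice with two-sided permutation tests. Between BAT and WAT the score had r = 0.718 (p = 0.010, adjusted p = 0.061) and rho = 0.643 (p = 0.028, adjusted p = 0.113), and r = 0.519 without the 2 mice farthest from the WAT median. Between liver and BAT r was 0.108 and rho 0.056 (p = 0.742 and 0.869), and between liver and WAT 0.235 and 0.224 (p = 0.469 and 0.485). In liver the score followed the ribosomal RNA control probe set with r = 0.730 (p = 0.007, adjusted p = 0.061) and rho = 0.769 (p = 0.005, adjusted p = 0.057), and r = 0.632 without 2 mice. In BAT it had r = 0.593 with the median of the array (p = 0.042, adjusted p = 0.133, rho = 0.559) and r = 0.583 with the Gapdh control (p = 0.044, adjusted p = 0.133, rho = 0.720). None of the 12 relations had an adjusted p under 0.05. In BAT the muscle-rich arrays had scores of 1.53 in CAAM mouse 2 and 0.66, 0.24 and -0.05 in water mice 1, 3 and 7, and the other 8 lay between -1.04 and 0.64. Without those 4 arrays the mean correlation of the subunits in BAT was 0.366, without the 4 epididymis-rich arrays it was 0.282 in WAT, and without CAAM mouse 2 alone it was 0.358 in BAT and 0.107 in WAT. The part of muscle and of array quality in the shared variation was not tested.

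Of 38 other genes of the pathway that were listed, 29 had a probe set with a single symbol. By limma 0 of 29 were called in each tissue. Rank products called 2 higher and 0 lower in liver, 2 higher and 2 lower in BAT, and 1 higher and 0 lower in WAT, where 1.63% of all probe sets were called higher and 1.18% lower in liver, 1.2% and 2.05% in BAT, and 0.824% and 1.94% in WAT. The calls higher were immunoproteasome genes, whose products replace the active sites of the common proteasome under interferon. Psmb8 and Psmb9 were called in liver and in BAT, and Psmb9 in WAT. Psmb8 had a standardised difference of 0.80 in liver, 0.80 in BAT and 0.35 in WAT, and Psmb9 had 0.35, 0.94 and 0.36, with exact permutation p of 0.148 or higher for each. Rank products called 0 of the 3 active-site subunits they replace. The 2 calls lower in BAT were the ligase genes Fbxo32 and Trim63, which mark proteins of skeletal muscle for the proteasome, with -0.41 each, in the tissue where muscle markers differed between arrays.

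The assembly chaperone gene Psmg1 differed by -1.21 in liver (exact permutation p = 0.071), 2.23 in BAT (p = 0.005) and 1.37 in WAT (p = 0.021), all unadjusted and on the deposited scale, since other scalings were not run for these genes. Ngly1, the glycanase that activates Nfe2l1, differed by 0.27 in liver, 2.49 in BAT (exact permutation p = 0.005, limma adjusted p = 0.612) and -0.91 in WAT. Nfe2l1 itself, the factor that raises proteasome genes when the protease is blocked, had mean scores of 8.88 in liver, 9.85 in BAT and 9.94 in WAT in water mice, and differed by -0.87, -0.87 and -0.14 between CAAM and water. Uchl5, a ubiquitin hydrolase on the regulatory particle, differed by 1.68 in BAT (exact permutation p = 0.018), and Akirin2, which carries proteasomes into the nucleus, by -1.67 in WAT (exact permutation p = 0.021). The exact permutation p was under 0.05 in 0 of the 29 genes in liver, in 5 in BAT and in 3 in WAT, where 6.85%, 6.26% and 4.33% of all probe sets passed in the same tissues, with Ecpas (1.32) and Foxo3 (1.40) completing those of BAT and Sem1 (1.59) those of WAT.

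Some of these genes varied with the subunits over the 12 mice and some against them. The correlation with the mean of the subunits was 0.738 in liver, 0.794 in BAT and 0.795 in WAT for Pomp, the maturation factor of the core, and 0.680, 0.798 and 0.554 for Vcp, the segregase that feeds substrates to the proteasome. Txnl1, a thioredoxin bound to the regulatory particle, had 0.523, 0.851 and 0.769. The immunoproteasome genes had 0.602 to 0.698 in liver, -0.415 to -0.156 in BAT and -0.024 to 0.119 in WAT. Nfe2l2, the antioxidant factor, had 0.126 in liver, -0.702 in BAT and -0.719 in WAT, and Foxo1, a factor of muscle and liver fasting programmes, had -0.620, -0.392 and -0.528. Over all probe sets the correlation with the same mean was above 0.7 in 1.19% in liver, 2.25% in BAT and 1.26% in WAT, and over the 29 genes in 2, 6 and 2 genes. These correlations are descriptions, since the values share their arrays.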

How the data were processed

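Total RNA of liver, BAT and WAT was hybridised to Affymetrix mouse arrays, 1 array per tissue and mouse (5 CAAM, 7 water). The authors quantified the arrays by the DFW method in R (version 2.7.2 in the submitters' processing notes) and deposited 1 score per probe set. Arrays carry no counts, and precision is limited by how many arrays there are. The 64 control probe sets were left out, which left 45037, of which 34945 have 1 gene symbol, 932 several and 9160 none. No value was missing.

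CAAM was compared with water within each tissue by rank products over 35 pairs of arrays with a threshold of 0.05 on the estimated false share, as in the study's methods (the null of 100 permutations of values within arrays was chosen here), by limma 3.58.1 in R 4.3.3 (Benjamini-Hochberg over all probe sets) and, for single genes, by a two-sided exact permutation test over all divisions of the mice, unadjusted, whose smallest possible p is 0.00126. Differences of the CAAM effect between tissues were tested by limma on standardised values within mice, and tissue levels were not tested. Other calculations used Python 3.11.15 with scipy 1.17.1. Equal numbers in the 2 groups are different mice and were not paired in the main analysis.

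On simulated data each test was given 50 changed probe sets per shift. At a shift of 4 SD limma found 37, 35 and 35 of 50 in liver, BAT and WAT, with 4, 5 and 6 false calls, rank products found 12, 7 and 8, with 1271, 1329 and 1381 false calls, and rank products on differences divided by the SD found 48, 48 and 50, with 142, 125 and 118 false calls.

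The subunits and the gene lists were chosen with earlier results of these data known. Named genes were the catalytic subunits, members called by a test, the 4 highest and 4 lowest differences per comparison, the 3 highest and lowest levels and some of the genes with discordant probe sets. Alternatives were quantile normalization, centring on array medians, the linear scale, rank products on differences divided by the SD, a filter on dim probe sets, the mouse number as a block and leaving out each mouse. Those that leave out the muscle-rich or epididymis-rich arrays, or a mouse in the comparison between tissues, were chosen after seeing the data. Promoter sequences are from RefSeq (GRCm38.p6), and 7 genes had no window in the table used.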

Additional observations from a re-analysis of the deposited data

Results flagged for a closer look

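Single mice stood far from the others of their group in 9 cases, given here as the gap to the nearest mouse over the range of the group, with limits of 0.710 for the 5 CAAM mice and 0.568 for the 7 water mice. Chance exceeds these limits in about 1 of 20 groups, and 68 groups were examined. In liver CAAM mouse 5 was highest for Psmc5 (0.803) and Psmd8 (0.885). In BAT CAAM mouse 2 was highest in the subunit score (0.720), in Psmc5 (0.768) and in Psmd12 (0.712), and water mouse 5 was lowest for Psmd8 (0.748). In WAT CAAM mouse 2 was highest in the subunit score (0.850), CAAM mouse 6 was lowest for Psmd8 (0.712) and water mouse 6 was lowest for Psmd8 (0.649). The CAAM mouse 2 that stood apart in BAT had a mean muscle marker score of 11.06 there, and the part of muscle was not tested. The CAAM difference of the dim Psma5 probe set was called as different between liver and BAT by limma (adjusted p = 0.026), in a test whose adjusted p may be too small.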

How the results depend on the processing

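Of 24 summary values, 16 moved or turned under at least 1 alternative (47 of 370 recalculations), and of 55 single-gene values 20 changed sign under at least 1 (47 of 782). The cause was not tested. Array medians within a tissue differ by at most 0.00596 score units, while the median SD of a probe set over the arrays of a tissue is at most 1.42e-05. With centring, 4.35% of all probe sets had a higher mean after CAAM in liver, 98.5% in BAT and 96.6% in WAT. Turns under centring are therefore not particular to the subunits.

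For levels, the median percentile difference of liver minus WAT was 0.463 with the mean of all probe sets of a gene. That of liver minus BAT turned to 0.0794 on the deposited score, where 22 genes were higher in liver, and to 0.0515 with the mean of all probe sets. That of BAT minus WAT turned to -0.0891 and -0.175, and Psmd13 to -0.0353 on the deposited score.

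For CAAM against water, quantile normalization gave 1 called probe set in liver (Psmc6, lower) and 0 in BAT, with 13, 36 and 32 genes higher in liver, BAT and WAT. The liver values after quantile normalization rest on few rank steps and do not measure how firm a subunit value is. Centring gave 0, 36 and 36 genes higher, with medians of -1.24 in liver and 0.91 in BAT. In BAT rank products on differences divided by the SD no longer called Psmd6 and called the dim Psma5 probe set higher (estimated false share 0.0133). The called members in BAT were 6 on the linear scale, all lower, where 1025 of all 45037 probe sets were called lower. They were 0 with the mouse number as a replicate block, above the median level, or without the muscle-rich arrays. In liver quantile normalization turned Psmd1 to -0.57, Psmc6 to -1.86 and Psmb7 to -0.81, and centring turned Psmc5 to -1.15, Psmd1 to -1.10, Psmc6 to -1.23, Psmd3 to -1.32 and Psmb7 to -0.45. In BAT quantile normalization turned Psmb3 to 0.49, Psmd8 to 0.20, Psmd6 to 0.38, Psmd14 to 0.27, Psmb5 to 0.14 and Psmb7 to 0.39, and centring to 0.89, 0.88, 0.83, 0.75, 0.90 and 0.89. In WAT quantile normalization turned Psmc3 to 0.12, Psmd8 to 0.11, Psma6 to 0.27, Psmd1 to 0.12 and Psmb6 to 0.32, and centring turned Psmc3, Psma6, Psmb6 and Psmb7 to 0.16, Psmd8 to 0.15 and Psmd1 to 0.16. Psmb7 was 0.33 in WAT without the epididymis-rich arrays.

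Equal mouse numbers did not deviate together (correlations of -0.153 to 0.151 in liver, -0.087 to 0.055 in BAT and -0.192 to -0.004 in WAT), so the numbers pair no samples. With the replicate block 0 members were called by either test in any tissue, and 27, 22 and 20 genes were higher in liver, BAT and WAT. The shares over all probe sets with the block are not given here.

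Leaving out 1 mouse at a time gave 0 to 6 members called by rank products in BAT, 0 to 0 in liver and WAT, and 0 to 0 by limma. The 6 in BAT were called lower without CAAM mouse 2, where 1105 of all 45037 probe sets were called lower. The number of genes higher ran from 16 to 28 in liver, 7 to 23 in BAT and 14 to 21 in WAT, with medians of -0.01 to 0.44, -0.55 to 0.14 and -0.32 to 0.18. The matching ranges over all probe sets are not given here, so these are no result about the subunits alone. Psmb6 in BAT ran from -0.20 to 0.41 and Psmb7 from -0.59 to 0.29, and in WAT Psmb5 from -0.0793 to 0.644 and Psmb7 from -1.21 to 0.00271. The members whose CAAM difference differed between tissues numbered 0 to 1 for liver minus BAT and 0 to 1 for BAT minus WAT, 1 without water mouse 2.

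The mean correlation of the subunits became 0.0786 in liver, 0.929 in BAT and 0.864 in WAT after quantile normalization, beside 0.177, 0.849 and 0.830 for all probe sets, and 0.905, 0.975 and 0.902 after centring. These scalings cannot show whether the excess of the subunits over other probe sets holds. It was 0.366 in BAT without the muscle-rich arrays, and leaving out 1 mouse gave 0.264 to 0.350 in liver, 0.358 to 0.546 in BAT and 0.107 to 0.238 in WAT.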
